A study of Homo sapiens with 6 samples.

Results

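Transcripts named for cytosolic ribosomal proteins were compared in the human uveal melanoma cell line 92.1, given VS-4718 or its DMSO vehicle for 2 h. Members were taken by name: RPL or RPS with a number and at most 1 letter of A, L, X or Y, together with RPLP0, RPLP1, RPLP2 and RPSA, each with or without a pseudogene suffix. The rule found 137 of the 12306 rows, 65 named as parent genes and 72 named as pseudogenes. VS-4718, which inhibits the focal adhesion kinase FAK, was given at 1 µM, and both groups were the same unmodified line in the same serum-containing medium. Each group held 3 libraries from samples called independent; whether these were grown as separate cultures is not said, so a p-value covers only the scatter among these libraries, part of which may be technical. The deposited log2 values behave like TPM, a level per transcript length on a common total, from which the depth of a library cannot be read.

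Each cytosolic ribosome joins a small (40S) subunit, which reads the mRNA, to a large (60S) subunit, which forms the peptide bond; an acidic stalk on the large subunit recruits translation factors. Ribosomal protein mRNAs are among the most abundant of a growing cell and share a 5′ terminal oligopyrimidine (TOP) motif, a C at the start followed by an unbroken run of pyrimidines, through which TOR signalling and LARP1 control their translation. Their genes also gave rise to very many processed pseudogenes, copies of the mRNA inserted elsewhere in the genome, so that a short read can match several copies.

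The TOP motif could be looked for at the annotated starts of the human genes. Of the 65 parent rows, 63 carried the name of a protein coding human gene in GENCODE 29 (GRCh38), and 47 matched a gene with a RefSeq promoter window (GRCh38.p14). A C followed by pyrimidines only, in a run of at least 5 bases, was searched at the annotated start on the gene's own strand. It stood at a start in 34 of the 47 (72.3%), against 5.14% of the 27305 genes in the same table; a match describes the annotated start and says nothing of translation, which was not measured. Where a gene had several windows, the start with the longest run was used, in these counts and below. Of all 35116 windows 4.07% carried the run. The lines below give 15 bases before and 15 after the start, 5′ to 3′ on the gene's strand, with that run in capitals. They were chosen, with the values known, for the most abundant rows, rows whose groups did not overlap, the stalk, genes of families discussed below and a pair of paralogs without the run.
RPL13A at chr19:49487593-49487622, plus strand: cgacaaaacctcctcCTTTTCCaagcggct
RPS3 at chr11:75399503-75399532, plus strand: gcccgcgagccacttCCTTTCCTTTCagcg
RPS19 at chr19:41860240-41860269, plus strand: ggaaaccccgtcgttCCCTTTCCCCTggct
RPL24 at chr3:101686704-101686733, minus strand: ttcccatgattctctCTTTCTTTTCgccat
RPS9 at chr19:54200843-54200872, plus strand: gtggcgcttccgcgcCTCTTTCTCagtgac
RPLP0 at chr12:120201097-120201126, minus strand: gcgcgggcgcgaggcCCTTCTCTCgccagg
RPLP1 at chr15:69452803-69452832, plus strand: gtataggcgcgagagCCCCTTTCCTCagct
RPLP2 at chr11:809952-809981, plus strand: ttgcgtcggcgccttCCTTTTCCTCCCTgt
RPL34 at chr4:108620561-108620590, plus strand: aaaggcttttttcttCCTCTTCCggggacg
RPS6 at chr9:19380222-19380251, minus strand: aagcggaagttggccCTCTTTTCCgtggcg
RPL10L at chr14:46651767-46651796, minus strand: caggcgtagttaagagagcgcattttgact
RPS27L at chr15:63157463-63157492, minus strand: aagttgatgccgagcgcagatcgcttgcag
RPL10L is a paralog of RPL10 known from the testis and RPS27L a paralog of RPS27 known as a p53 target. The 13 matched parents without the run also included abundant rows, up to a mean level of 10.83. Among them too was RPS4X, whose groups did not overlap.

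The libraries resembled each other closely, and the row names of the table follow mouse usage although the labels name a human line and build. Rank correlations across genes lay between 0.984 and 0.988 for all pairs of libraries. Of 7 melanocyte markers all had a row, and their summed level ran from 7224 to 7808 TPM-like units with vehicle and from 7018 to 7689 with VS-4718; PMEL (12.21 with vehicle) and TYRP1 (11.21) carried it, while MLANA (-1.82) and TYR (-2.20) were nearly missing. Rows for fibroblast (4 of 5), immune (2 of 6), endothelial (2 of 4) and epithelial (1 of 5) markers summed to at most 8.60 units. The pseudogene row names were compared only with protein coding human genes in GENCODE 29, which a pseudogene name could not match. Human pseudogene names were not searched. Which human transcripts fed those rows is not known. A level below therefore describes a row, and comparisons between groups are made within a row or within a family of rows that share a name stem.

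Parent rows ranged in mean level from -0.89 to 13.04 log2 units. Their median level was 6.74 log2 units, against 3.03 for all rows and 2.19 for the pseudogene rows. A mean over 8 was found for 26 parent and 14 pseudogene rows, and a mean of 3 or less for 22 and 42. Among the highest parents were RPL13A (8461 TPM-like units on average), RPS3, a 40S protein at the mRNA entry, RPS19, a 40S protein mutated in Diamond-Blackfan anaemia, and RPL22. Several core parents had almost no level, although a growing cell needs their products. RPL5, which carries 5S rRNA to the ribosome and binds MDM2, stood at 1.02, 0.03 and 0.99 in the vehicle libraries and 0.36, 0.73 and 0.43 in the VS-4718 libraries. RPS27A, a ubiquitin fusion, ran from -2.37 to 0.37. Of 77 standard human ribosomal protein names under the rule, 59 had a parent row, 8 had pseudogene rows only, and 10 (among them RPL11, the partner of RPL5) were not analysed here.

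In many families most of the summed level sat in a row named as a pseudogene. In 13 of the 25 families with both kinds of row, a pseudogene row was the highest, and 9 families had pseudogene rows only. RPL19 stood at 4.62 ± 0.16 (SD, n = 3) with vehicle while RPL19-PS1 stood at 11.68 ± 0.01, so that this pseudogene row held 98.9% of the family's summed linear values. RPL12-PS2 held 99.6% of its family and RPL5-PS2 99.6%, and RPS6, the substrate of S6 kinase, had RPS6-PS1 as its family's highest row, at 7.76 ± 0.09. In other families the parent kept the level: RPS19 held 99.5% of its family beside 9 pseudogene rows, none of which had a mean above 3.

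**Figure D1:**
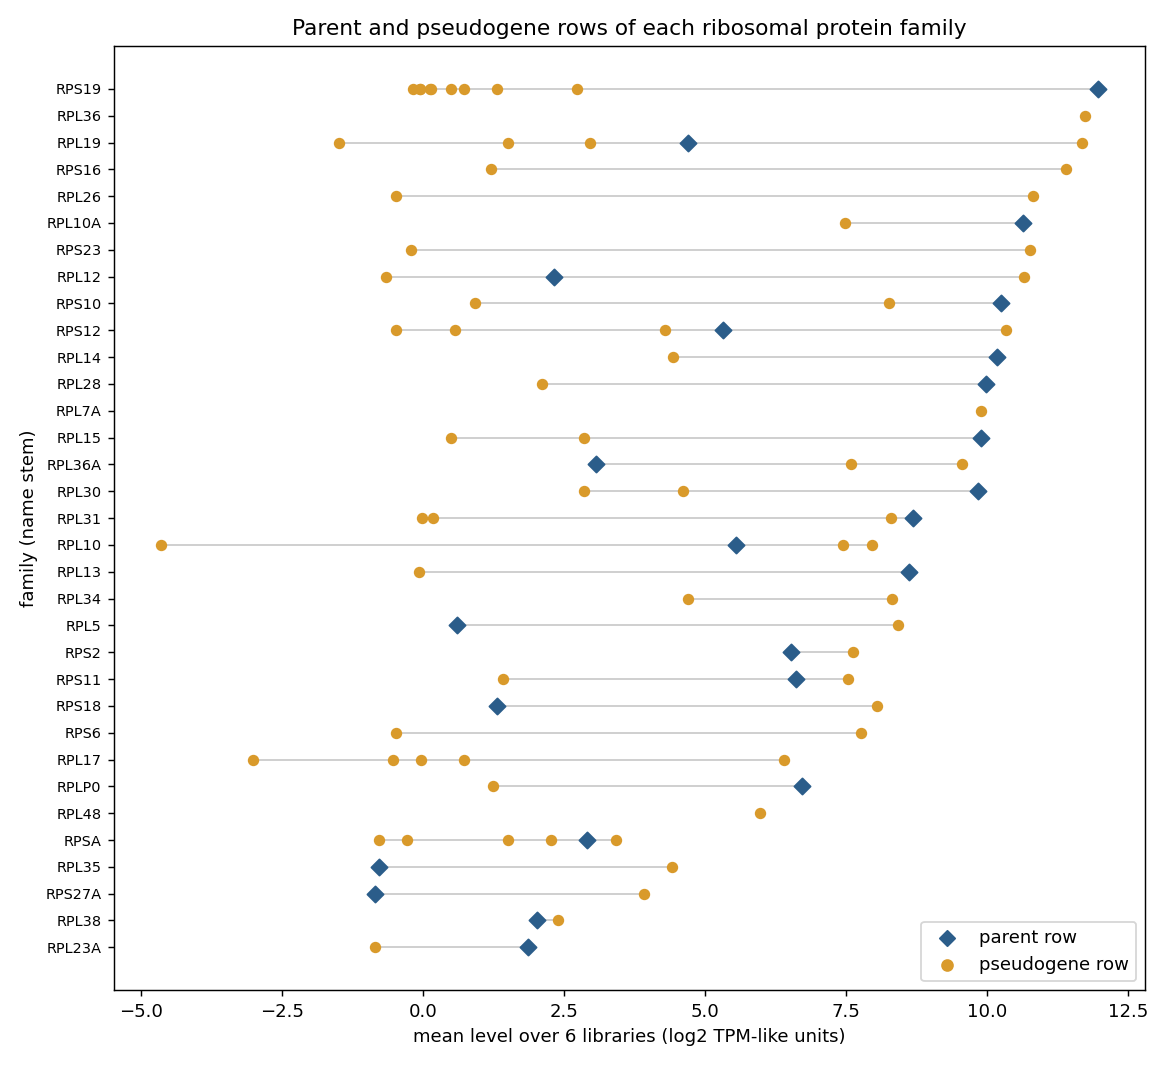
Mean level over the 6 libraries (log2 TPM-like units, x axis) of every row in 33 of the 34 families that have a pseudogene row (y axis, sorted by the family's summed level); diamonds are parent rows and circles pseudogene rows. In 13 of the 24 families shown with both kinds of row, the rightmost point is a circle.

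The comparison asked whether these transcripts differed after 2 h with VS-4718. Among the parent rows none passed. More of them had a higher than a lower mean with VS-4718, and the differences ran from -1.01 to 5.77 log2 units around a median near 0. Of 65 parent rows 56 had a mean over the filter of 0.70 and were tested; 41 had a higher mean with VS-4718 and 15 a lower one, with a median difference of 0.06 log2 units (0.02 without vehicle replicate 1 and 0.04 without VS-4718 replicate 2). These are bulk RNA values, in which fewer cells with a transcript and less of it per cell cannot be told apart. Across all 9229 tested rows 41.8% had a higher mean and the median was -0.03. In limma with Benjamini-Hochberg adjustment 0 parents were called (background 0.13% of tested rows, 0.0433% higher and 0.0867% lower), the smallest adjusted p being 0.46. At an unadjusted p under 0.05 there were 4 parents, all higher, or 7.14%, against 9.76% of all tested rows (3.02% higher and 6.74% lower). The groups did not overlap, with VS-4718 higher, in 7 of 56 parents (12.5%), against 5.15% of all tested rows; with VS-4718 lower it was 1 parent (1.79%), against 11.2%. Without the filter, 47 of all 65 parent rows had a higher mean.

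**Figure D2:**
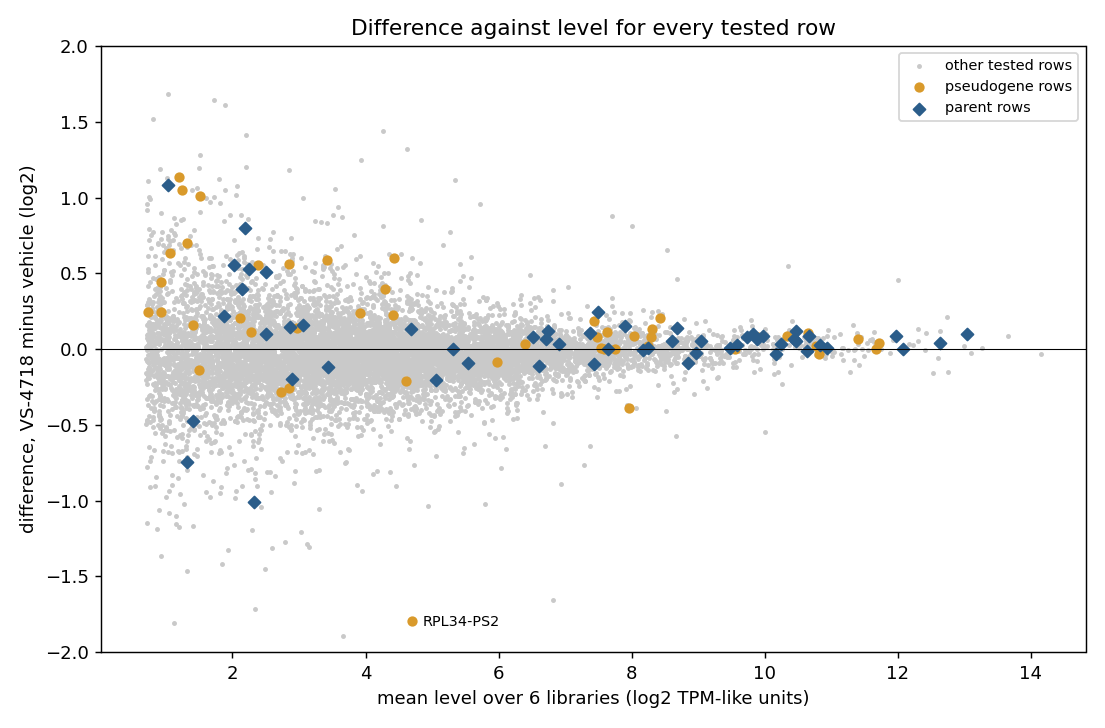
Difference of group means (VS-4718 minus vehicle, log2, y axis) against the mean level over 6 libraries (log2 TPM-like units, x axis) for every tested row; 2 member rows and 7 other rows lie outside the plotted range. Parent rows (diamonds) with a level over 8 lie between -0.09 and 0.14, and RPL34-PS2 stands apart among the pseudogene rows (circles).

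Among rows of the 40S subunit 5 of 24 tested parents (20.8%) had groups that did not overlap, all with VS-4718 higher. Of all tested rows 5.15% were separated with VS-4718 higher and 11.2% with it lower. RPS9, a 40S protein needed for decoding fidelity, stood at 7.23, 7.48 and 7.38 with vehicle and at 7.57, 7.76 and 7.51 with VS-4718. All treated libraries lay above all vehicle libraries, with a difference of 0.25 (SE 0.09, adjusted p = 0.46), the smallest p of any parent. RPS19 stood at 11.91, 11.91 and 11.96 and at 11.99, 12.07 and 11.97, again without overlap, although the gap between the groups was only a fraction of the spread within the treated group (difference 0.08, SE 0.03, adjusted p = 0.50; 0.053 without VS-4718 replicate 2). RPS4X, the X-linked copy of the S4 protein, averaged 6.68 ± 0.04 and 6.80 ± 0.06, and RPS2 averaged 6.48 ± 0.03 and 6.57 ± 0.03, both without overlap. RPS24 was the fifth 40S parent without overlap, at a level near the filter (0.50 ± 1.07 and 1.58 ± 0.35). RPS15A had an unadjusted p under 0.05 too, with overlapping groups (difference 0.51, SE 0.19, adjusted p = 0.49). In all 18 of 24 tested 40S parents had a higher mean, with a median of 0.07. RPS3, the most abundant member after RPL13A (12.61 ± 0.03 and 12.66 ± 0.02), differed by 0.04. RPSA, the laminin receptor precursor that sits on the back of the small subunit, was low and had a lower mean (3.00 ± 0.12 and 2.80 ± 0.20).

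Among rows of the 60S subunit 2 of 29 tested parents (6.90%) were separated with VS-4718 higher, against 5.15% of all tested rows. With VS-4718 lower it was 1 parent (3.45%), against 11.2%. RPL24 stood at 10.57, 10.65 and 10.68 with vehicle and at 10.70, 10.70 and 10.76 with VS-4718, and RPL28 at 9.93, 9.91 and 9.97 and at 10.02, 9.97 and 10.07. Both were without overlap and both differed by 0.09 (SE 0.04; adjusted p = 0.53 for each), RPL24 by 0.055 without vehicle replicate 1. RPL13A, the highest member, whose product also takes part in translational silencing of inflammatory mRNAs, stood at 12.92, 13.01 and 13.05 and at 13.10, 13.14 and 13.05. Its groups overlapped slightly and it differed by 0.10 (SE 0.04, adjusted p = 0.49), or by 0.063 without vehicle replicate 1. RPL10, which joins the large subunit late in its maturation, was the 1 parent without overlap in the lower direction (5.59 ± 0.02 and 5.50 ± 0.02, adjusted p = 0.65). RPL4, which reaches into the exit tunnel, had the lowest difference among parents with a level over 8, with overlapping groups (8.90 ± 0.15 and 8.80 ± 0.13). Among the 60S parents 21 of 29 tested had a higher mean, with a median of 0.05.

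The stalk proteins had no separated groups. RPLP2 stood at 8.98 ± 0.01 with vehicle and 8.96 ± 0.05 with VS-4718, and RPLP0, which anchors the stalk, at 6.69 ± 0.23 and 6.75 ± 0.12. RPLP1 stood at 6.89 and 5.80 in vehicle replicates 1 and 2 but at -10.74 in vehicle replicate 3, and at 6.59, 8.05 and 4.62 with VS-4718. On the linear scale that library held 0.000585 TPM-like units, where the others held between 24.6 and 264.7. The fitted difference of 5.77 (SE 4.4, adjusted p = 0.70) rested on it, and without vehicle replicate 3 the difference was 0.08.

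Among the abundant parents the small upward differences were spread over many rows, and the libraries of a group were not alike. The bound of 8 log2 units was chosen after the values were seen. Of the 26 parents above it 20 had a higher mean with VS-4718, with a median of 0.05, whereas 52.9% of the 493 other rows above 8 had a higher mean, with a median of 0.00. No abundant parent was called, and 3 of 26 had groups that did not overlap, all higher (11.5%, against 9.94% of the other abundant rows). VS-4718 replicate 2 was the highest library in 22 of the 56 tested parents and vehicle replicate 1 the lowest in 23. In all 533 tested rows above 8, members included, these libraries were also most often the highest (134) and the lowest (142). Over all 9229 tested rows the counts were 1235 and 1312, and VS-4718 replicate 2 was the lowest in 2491. Measured against the vehicle means, the median tested parent stood at -0.04, 0.06 and 0.01 in the vehicle libraries and at 0.06, 0.07 and 0.02 with VS-4718, so VS-4718 replicate 3 lay inside the vehicle range and vehicle replicate 2 at the level of the treated libraries. Without vehicle replicate 1, the parents with a higher mean numbered 34 of 56 (60.7%, against 42.1% of all rows), and without VS-4718 replicate 2 they numbered 40. The part of these libraries in the result was not tested further.

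**Figure D3:**
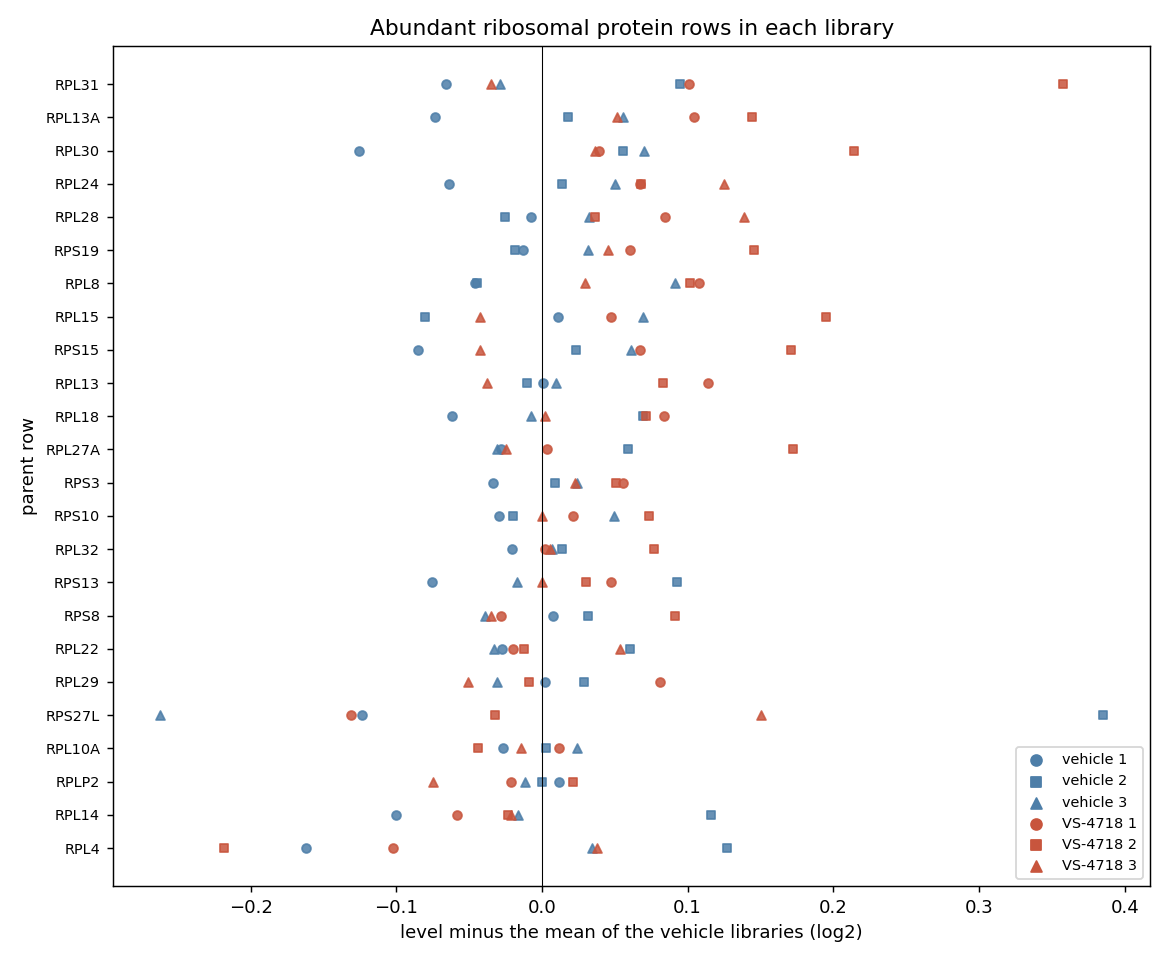
Level of 24 of the 26 parent rows with a mean over 8 in each library, relative to the mean of its vehicle libraries (log2, x axis), with rows sorted by the difference between groups (y axis); circles, squares and triangles are replicates 1, 2 and 3, vehicle in blue and VS-4718 in red. The median of all 26 differences is 0.05; RPL24, RPL28 and RPS19 are the rows shown whose groups do not overlap.

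In the pseudogene rows 1 row passed, RPL34-PS2, and it fell (1 of 48 tested, against 0.0867% of all tested rows called lower). It stood at 5.65, 5.51 and 5.63 with vehicle and at 4.28, 3.62 and 3.51 with VS-4718, a fall of 71.1% (difference -1.79, SE 0.20, adjusted p = 0.045). The groups lay more than 1 log2 unit apart. Its companion RPL34-PS1, also named as a copy of the 60S protein gene RPL34, was far higher and its groups overlapped: 7.90, 8.01 and 8.83 with vehicle and 8.95, 8.18 and 8.01 with VS-4718. RPL34-PS2 made up between 9.83% and 17.3% of the summed family in the vehicle libraries and between 3.80% and 4.24% with VS-4718. The sum of both rows differed by -0.03 (8.47 ± 0.45 and 8.44 ± 0.50, adjusted p = 0.98), with overlapping groups. The call was lost without any 1 of vehicle replicates 1, 2 and 3 and VS-4718 replicates 2 and 3 (adjusted p between 0.12 and 0.24), and with the replicate block (0.16), where 0 of the 9229 rows were called, while the difference stayed between -2.03 and -1.64 when a library was left out.

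Most other pseudogene rows had higher means, as the parents did. Of 72 rows 48 were tested, and 38 had a higher mean with VS-4718 against 10 lower, with a median of 0.10; over all 72 it was 50 higher. Without vehicle replicate 1 it was 30 of 48 with a median of 0.03, and without VS-4718 replicate 2 it was 32 with a median of 0.04. Groups did not overlap in 6 of 48 with VS-4718 higher (12.5%, against 5.15% of all rows) and in 2 with it lower (4.17%, against 11.2%), RPL34-PS2 and RPL10-PS6. The abundant rows differed little: RPL36-PS2 (11.71 ± 0.04 and 11.75 ± 0.02), RPL19-PS1 (11.68 ± 0.01 and 11.68 ± 0.03), RPS16-PS3 (11.37 ± 0.06 and 11.44 ± 0.03), RPL26-PS2 and RPS23-PS1 had differences between -0.03 and 0.07. RPL12-PS2, which held nearly all of the summed level of its family, stood at 10.53, 10.65 and 10.62 and at 10.67, 10.78 and 10.69, without overlap and with a difference of 0.11 (SE 0.05, adjusted p = 0.51). RPS2-PS10 differed by 0.11 as well (SE 0.05) and RPL7A-PS12 by 0.08, also without overlap. The remaining rows with the smallest p were low ones with a higher mean and no call: RPL14-PS1 (4.13 ± 0.28 and 4.74 ± 0.31), RPL15-PS4 (2.57 ± 0.34 and 3.14 ± 0.08), RPL19-PS6 (1.00 ± 0.50 and 2.01 ± 0.54) and, with overlapping groups, RPS16-PS2 (0.63 ± 0.87 and 1.76 ± 0.62). Without vehicle replicate 2 the difference of RPL15-PS4 was 0.37 in place of 0.56 and that of RPS16-PS2 0.63 in place of 1.13.

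Within some families the level passed from row to row between libraries of the same group. The 5 rows of RPL17, a 60S protein that lines the exit tunnel, had no parent row, and 4 of them had an SD over 2 log2 units, which among all members was otherwise found for RPLP1 only. RPL17-PS3 held 0.369, 104 and 94.2 TPM-like units in the vehicle libraries and 0.000266, 0.978 and 21.5 with VS-4718. RPL17-PS10 stood between 4.34 and 5.71 log2 units with vehicle and at 4.47, -11.46 and -25.72 with VS-4718, while RPL17-PS4 stayed between 5.66 and 7.08 throughout. RPL17-PS5 and RPL17-PS9 had equal values, within 0.000001 log2 units, in 5 of the 6 libraries. In vehicle replicate 3 they held 1.04 and 8.23 TPM-like units. RPS19-PS1 and RPS19-PS2 had equal values in all 6. Where the values of a pair are equal, its rows are not separate measurements. The RPL17 sum that follows counts both rows of its pair. The sum over the 5 RPL17 rows was far steadier: 193, 197 and 221 units with vehicle and 121, 148 and 147 with VS-4718. All treated sums lay below all vehicle sums, with a difference of -0.56 (SE 0.09, adjusted p = 0.18), the smallest p among the family sums and not past the threshold.

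The RPL10 family held most of its level in pseudogene rows, 51.9% of it in RPL10-PS6. This row averaged 8.16 ± 0.04 with vehicle and 7.77 ± 0.26 with VS-4718, lower without overlap (difference -0.39, SE 0.12, adjusted p = 0.39; -0.26 without VS-4718 replicate 3). RPL10-PS5 overlapped widely, from 6.89 to 7.86 and from 6.67 to 8.35. Summed over its 4 rows the family overlapped between the groups, at 8.97 ± 0.14 and 8.84 ± 0.44.

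**Figure D4:**
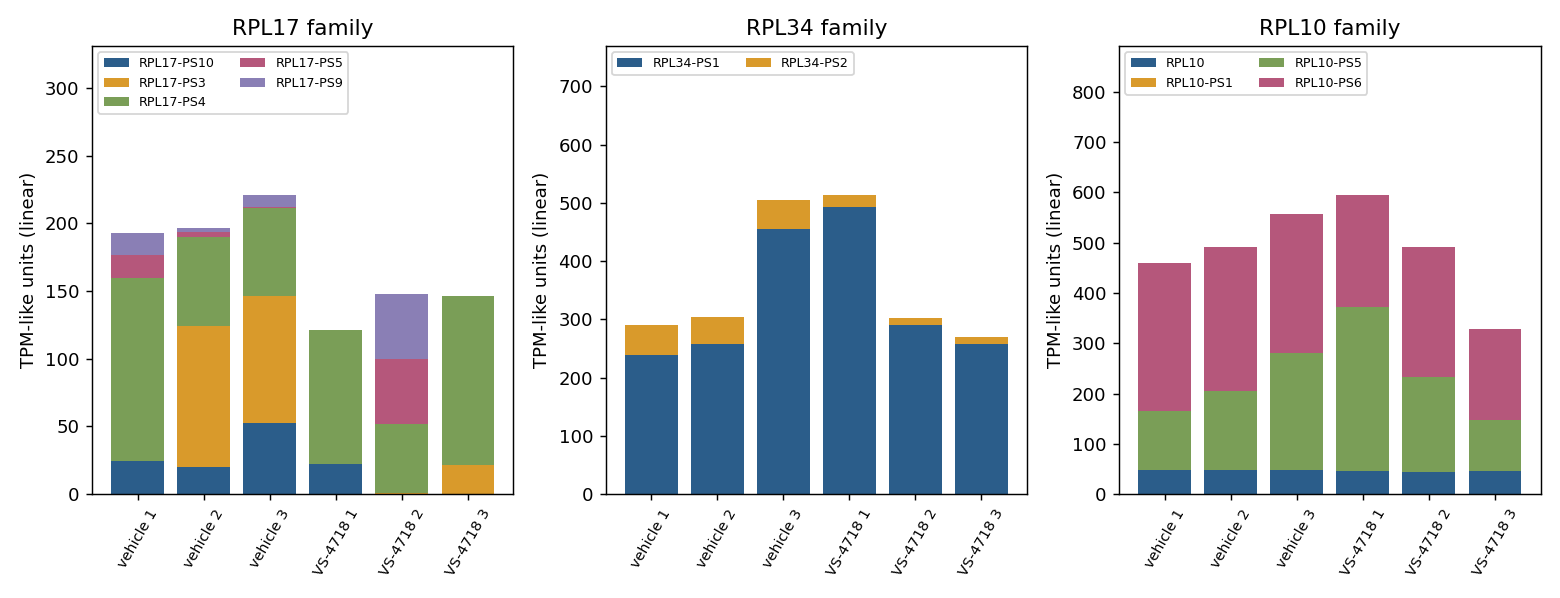
Linear TPM-like units (y axis) of each row of the RPL17, RPL34 and RPL10 families, stacked within each library (x axis), so that the height of a bar is the family's sum. The RPL17 bars are lower in all VS-4718 libraries (121 to 148) than in the vehicle libraries (193 to 221) while their parts change from library to library; in the RPL34 bars RPL34-PS2 shrinks and the total does not separate the groups.

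The rows of each family were also summed on the linear scale, and no family passed. A sum of values per length can still shift where reads pass between rows of different length. The rule's rows form 74 families, 31 of them with more than 1 row. In all 31 the sum varied less over the 6 libraries than the most variable row (median SD 0.08 against 0.79), though the most variable row was often a low one; against its highest row the sum varied less in 17 of the 31, and in 7 of the 11 whose highest row held under 90% of the sum. In the fit with family sums 68 were tested, 52 with a higher mean and 16 with a lower one, with a median of 0.07, beside 41.7% of the 9193 rows of that table with a higher mean. In limma 0 sums were called (background 0.12%, 0.0435% higher and 0.0761% lower). At an unadjusted p under 0.05 there were 6 higher and 1 lower sums (10.3%), against 9.79% of that table (3.01% higher and 6.78% lower). The groups did not overlap with VS-4718 higher in 9 sums (13.2%, against 5.12%) and with it lower in 1 (1.47%, against 11.2%), the RPL17 family. The next smallest p belonged to RPS9 and RPS15A, which have a parent row only. RPS2, with its pseudogene row, averaged 8.13 ± 0.04 with vehicle and 8.23 ± 0.03 with VS-4718, without overlap. The RPL5 sums (8.33 ± 0.18 and 8.54 ± 0.19) and the RPS27A sums (3.88 ± 0.21 and 4.09 ± 0.32) overlapped.

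Taken as a share of each library, ribosomal protein rows were slightly higher with VS-4718, by about the spread between libraries. Parent rows held 5.32%, 5.54% and 5.56% of the summed linear values in the vehicle libraries and 5.66%, 5.81% and 5.56% with VS-4718. Pseudogene rows added 2.42%, 2.48% and 2.53% and then 2.58%, 2.57% and 2.45%. VS-4718 replicate 3 lay within the vehicle range in both. The mean of parent and pseudogene rows together was 7.95% ± 0.19 with vehicle and 8.21% ± 0.18 with VS-4718, and the groups overlapped. In TPM-like units the parent sum was 3.85% higher and the pseudogene sum 2.44% higher. The parent difference of 1766 units became 2868 with median scaling, 1088 when vehicle replicate 1 was omitted and 1158 when VS-4718 replicate 2 was. The pseudogene difference of 506 units was 246 without vehicle replicate 1, 318, 337 and 864 without VS-4718 replicates 1, 2 and 3, and 1003 with median scaling.

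**Figure D5:**
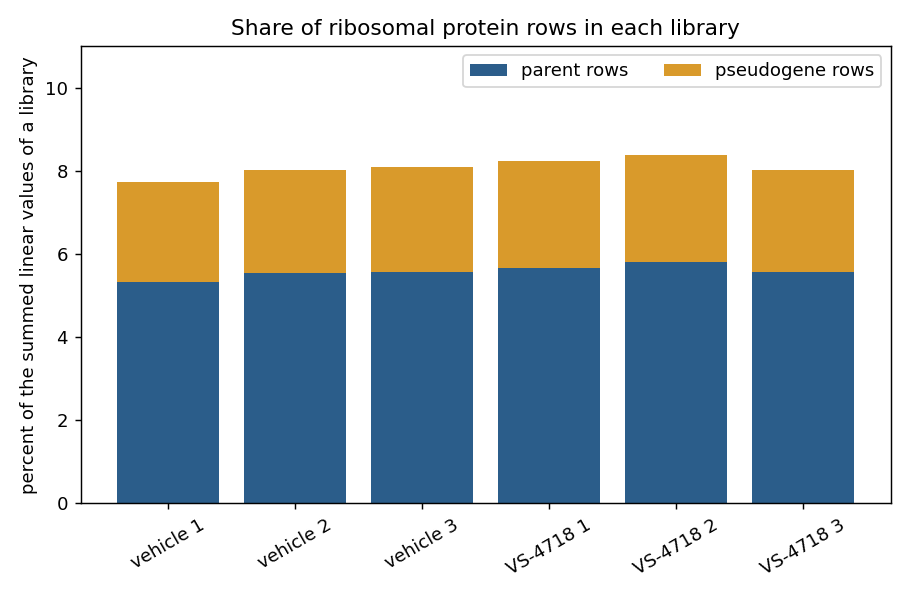
Percent of the summed linear values of each library (y axis) held by parent rows and by pseudogene rows, stacked, for the 3 vehicle and 3 VS-4718 libraries (x axis). The bars reach 7.73% to 8.10% with vehicle and 8.01% to 8.37% with VS-4718, so the groups overlap.

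In the other gene lists of the translation machinery the direction was mixed, and no gene was called. Among genes listed as elongation factors, 5 of 11 tested had a higher mean. At an unadjusted limma p under 0.05 there were 2 higher and 1 lower (27.3%), against 9.76% of all tested rows. EEF2, the translocase, averaged 9.95 ± 0.02 and 10.08 ± 0.05 (adjusted p = 0.36). EEF1G differed by 0.08 (SE 0.03) and EEF1E1 by -0.32 (SE 0.12). Initiation factors had 16 of 37 higher, with a median of -0.01. EIF4G1, the scaffold of the cap-binding complex, stood at 8.88 in every vehicle library and at 8.72, 8.68 and 8.67 with VS-4718 (adjusted p = 0.18), while EIF4B, a cofactor of the helicase EIF4A, averaged 8.33 ± 0.04 and 8.48 ± 0.07. Other genes with TOP mRNAs had 5 of 9 higher, with a median of 0.02 and no unadjusted p under 0.05.

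Among regulators, genes of the TOR pathway and of TOP mRNAs had 12 of 21 tested genes higher, with a median of 0.03, and EIF4EBP2, a translation repressor that TOR phosphorylates, had the smallest p (0.21, SE 0.09, adjusted p = 0.53). Chaperones of ribosomal proteins had 2 of 8 higher, with a median of -0.07, and AAMP differed by -0.30 (SE 0.14). Genes of ribosome quality control had 5 of 14 higher, with a median of -0.01, and PELO, which rescues stalled ribosomes, differed by -0.18 (SE 0.08). None of these regulators had an unadjusted p under 0.05.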

How the data were processed

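Total RNA of 3 vehicle and 3 VS-4718 samples of 92.1 cells was sequenced, and the authors deposited 1 log2 value per gene symbol and library. Per the submitters' processing notes kallisto was used with build GRCh38; its version, index, annotation and filters were not given in the sources used here. That these deposited log2 values are TPM-like is read from the deposited columns, whose linear sums lie between 836527 and 840714.

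Members, gene lists and settings were chosen with earlier results of these data known, so nothing here is an independent test of them. The values as given were fitted with limma 3.58.1 in R 4.3.3 (trend, group as the only term, two-sided) on the 9229 rows with a mean above the lowest 25% (over 0.70), with Benjamini-Hochberg adjustment over all of them and a threshold of 0.05. Family sums are log2 of summed linear values, fitted in the same way in place of their rows. The fit was tested on simulated data. An exact permutation of 3 against 3 cannot go below 0.1, so single rows were tested only in the fit.

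Members were named by this rule: called rows; the 8 parent and 8 pseudogene rows with the smallest p; the 5 highest of each; any with an SD over 2; the 3 family sums with the smallest p; RPLP0, RPLP1, RPLP2, RPSA, RPS6, RPS27A, RPL5, RPL11 and RPS19; and up to 3 genes of each other list by smallest p. Others were named after their values were seen. Some items that this rule or a figure would name are not reported here; they stay in the fits and counts. Alternatives were each library left out, a replicate block, 2 scalings, 2 filters, 2 pseudocounts, limma without trend, quality weights, robust variances and wider names. Figures used matplotlib 3.10.9.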

Additional observations from a re-analysis of the deposited data

How the results depend on the processing

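The 1 call among the members, RPL34-PS2, was lost under several alternatives, while its difference stayed between -2.03 and -1.64 with a library left out. The count of called pseudogene rows was 0 with the replicate block (adjusted p = 0.16; 8 pseudogene rows at an unadjusted p under 0.05), 0 with no filter (0.058; 9 rows), 0 in limma without trend (0.09; 5 rows) and 0 with sample quality weights (0.063; 5 rows), and between 0 and 1 over the 6 fits that omit a library. Over all rows 12 were called, against 0 with the block, 8 with no filter, 0 without trend, 11 with weights and 0 to 7 with a library omitted, so calls of other rows were lost too. It stayed at 1 with median scaling, members left out of the total, the stricter filter, pseudocounts of 1 and 10, robust variances and wider names, with adjusted p from 0.019 to 0.049. The block and the omission of a library take degrees of freedom from the fit; the cause of the other losses was not tested. Called parents and family sums numbered 0 under every alternative. The pseudogene rows with a higher mean numbered 24 with the stricter filter, which tests 30 of them; these counts were added after seeing the data. Among the members named, signs near 0 reversed for RPLP2 (0.0087 with median scaling) and, with a library left out, RPL22 (-0.016 to 0.037), RPL19-PS1 (-0.015 to 0.0086), RPS23-PS1 (-0.0032 to 0.050) and RPLP0 (-0.065 to 0.16). The median difference stayed between 0.02 and 0.09 for parents and 0.03 and 0.13 for pseudogene rows. Residuals of libraries with equal numbers correlated at 0.135, 0.0547 and 0.0316, and those with unequal numbers between -0.0938 and 0.0491. The labels do not say that equal numbers mark a shared culture, so the numbers were not taken as pairs. Whether they mark pairs was not tested. With the block 0 of the 9229 rows were called. TPM-like values give no depth, so counting error is unknown.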

Other observations

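Proteins of the mitochondrial ribosome, which translates the respiratory chain subunits of the mitochondrial genome, had mostly lower means. Of 41 rows 33 were tested, and 25 had a lower mean with VS-4718 against 8 higher. A higher mean was thus found for 24.2%, against 41.8% of all tested rows, most of which had a lower mean too. The median was -0.07, beside a median of -0.03 over all tested rows. The groups did not overlap with VS-4718 lower in 10 of the 33 (30.3%), against 11.2% of all rows. At an unadjusted limma p under 0.05 there were 5, all lower (15.2%), against 9.76% of all tested rows (3.02% higher and 6.74% lower). MRPL27, of the large mitochondrial subunit, stood at 7.22, 7.19 and 7.14 with vehicle and at 6.99, 6.89 and 6.95 with VS-4718 (difference -0.24, SE 0.05, adjusted p = 0.25). MRPS27, of the small one, stood at 5.19, 5.26 and 5.14 and at 5.01, 4.82 and 4.97 (difference -0.26, SE 0.08, adjusted p = 0.38). None was called. Whether the cytosolic and mitochondrial rows differ from each other in their response was not tested.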
